A study of Mus musculus with 58 samples.

Results

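The basement membrane genes described here are Col4a1, Col4a2, Lama2, Lama4, Lamb1, Lamb2, Lamc1, Nid1, Nid2 and Hspg2. They were chosen by symbol in the platform annotation, and each of the 10 had 1 probe set among 23185 named probe sets. Expression was measured on Affymetrix arrays in the diaphragm (DIA), the main muscle of breathing, and in the tibialis anterior (TA), a muscle of the lower leg. All animals were adult female NSG mice, a strain without mature lymphocytes or natural killer cells, in which human tissue can grow. Tumour-bearing mice had pieces of a pancreatic ductal adenocarcinoma of a patient with cachexia, the wasting of muscle and fat in disease, placed on the pancreas (patient-derived xenograft, PDX). Sham mice were operated on and received no tumour. Tumours of 4 patients made 4 cohorts, with 3, 5, 5 and 4 PDX arrays per muscle in cohorts 1, 2, 3 and 4 and 3 sham arrays per muscle in every cohort. Each muscle thus had 17 PDX and 12 sham arrays, 58 arrays in all. Animals were killed once the PDX mice were severely cachectic or carried very large tumours, and the labels give no time since surgery.

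The basement membrane is a thin sheet of matrix that surrounds every muscle fibre and lies under the endothelium of every capillary. Collagen IV, whose common form is built from the products of Col4a1 and Col4a2, makes one network of the sheet, and laminins, each of an alpha, a beta and a gamma chain, make the other. Nidogens and perlecan (the product of Hspg2) connect both networks. The laminin alpha 2 chain (Lama2) is the main alpha chain around muscle fibres and its loss causes a congenital muscular dystrophy in humans and mice, whereas alpha 4 (Lama4) is found mainly around blood vessels.

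Col4a1 and Col4a2 lie head to head on mouse chromosome 8 and are transcribed in opposite directions from a common promoter region. The promoter windows are shown because both windows overlap, and whether the shared region bears on expression was not tested. RefSeq windows of 300 bases, 250 before the gene start and 50 from it on (GRCm38.p6), were found for 7 of the 10 genes. None was matched for Lama4, Nid2 and Lamc1. The Col4a1 window is chr8:11312777-11313076 on the minus strand and the Col4a2 window is chr8:11312555-11312854 on the plus strand. Each is written 5′ to 3′ on the strand of its gene, and the capitals mark the 78 bases that both windows share, read from opposite strands.
Col4a1: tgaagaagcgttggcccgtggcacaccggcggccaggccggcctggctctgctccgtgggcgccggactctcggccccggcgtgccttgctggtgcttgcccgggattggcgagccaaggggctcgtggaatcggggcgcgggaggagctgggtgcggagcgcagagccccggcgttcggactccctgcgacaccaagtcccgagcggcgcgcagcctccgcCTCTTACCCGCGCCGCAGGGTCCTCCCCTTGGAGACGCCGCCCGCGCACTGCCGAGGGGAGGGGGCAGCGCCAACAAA
Col4a2: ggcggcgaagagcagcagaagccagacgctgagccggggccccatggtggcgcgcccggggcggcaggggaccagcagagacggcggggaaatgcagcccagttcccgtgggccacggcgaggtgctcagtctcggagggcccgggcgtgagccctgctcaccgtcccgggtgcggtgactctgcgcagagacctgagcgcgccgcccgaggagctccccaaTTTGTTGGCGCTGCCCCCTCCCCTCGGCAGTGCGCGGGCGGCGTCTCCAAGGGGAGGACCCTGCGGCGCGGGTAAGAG
The annotated starts lie 21 bases apart, both inside the shared stretch. Each gene is read from its start toward the start of the other, so the annotated transcripts overlap there with no gap between them. The windows hold 74.0% (Col4a1) and 73.7% (Col4a2) G and C. On both strands the GC box GGGCGG occurred in 6 of the 7 windows, against 35.7% of all 32851 mouse windows in the table. The letters CCAAT occurred in 4 of the 7 (37.4% of all windows), TATAAA in 0 of the 7 (13.6%), and CCCTCCCC, which resembles a pyrimidine-rich element described between these collagen genes, in 3 of the 7 (10.8%), namely Col4a1, Col4a2 and Nid1. The shared stretch holds 1 GC box and 1 CCCTCCCC. That CCCTCCCC is the only one in either collagen window, and that GC box is the only one in the Col4a1 window. Both windows thus count the same sites, so the 7 windows are not independent. These matches describe letters only.

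Array medians lay between 3.70 and 3.86 on the log2 scale, and the highest correlation between any arrays was 0.993. The arrays carried the labelled tissue's markers, with 12 of 12 fibre markers above the array median in DIA and 11 of 12 in TA. Hepatocyte RNA set some diaphragm arrays apart. Alb, the gene of serum albumin, lay more than 3 log2 units above its median of 6.77 on 9 of 17 DIA PDX arrays and 6 of 12 DIA sham arrays, and on no TA array. Those DIA PDX arrays include all 3 of cohort 1, so that a comparison without the Alb-high arrays rests on cohorts 2, 3 and 4. The Alb median is over the arrays of both muscles, and some TA arrays lay not far below the cut. They were TA PDX replicates 1 and 4 of cohort 4, at 9.44 and 9.29, and TA sham replicate 1 of cohort 3, at 9.30. In TA, PDX replicate 1 of cohort 3 stood apart, with a median correlation of 0.9545 with its own group, against 0.9749 to 0.9777 for the other 4.

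In the tibialis anterior all 10 genes were lower in PDX than in sham mice. Nid1 and Hspg2 were lowest relative to sham, at 0.600-fold each, and Lamb2 was reduced least, at 0.789-fold. Over all 23185 named genes, 6.53% were called lower and 12.8% were called in either direction (limma, Benjamini-Hochberg adjusted p under 0.05). The median log2 difference of the 10 genes was -0.50, against -0.01 for all genes. The differences are within-cohort differences of PDX minus sham, averaged over 4 cohorts with equal weight. In bulk RNA, fewer cells of a type and less RNA per cell cannot be told apart.

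**Figure D1:**
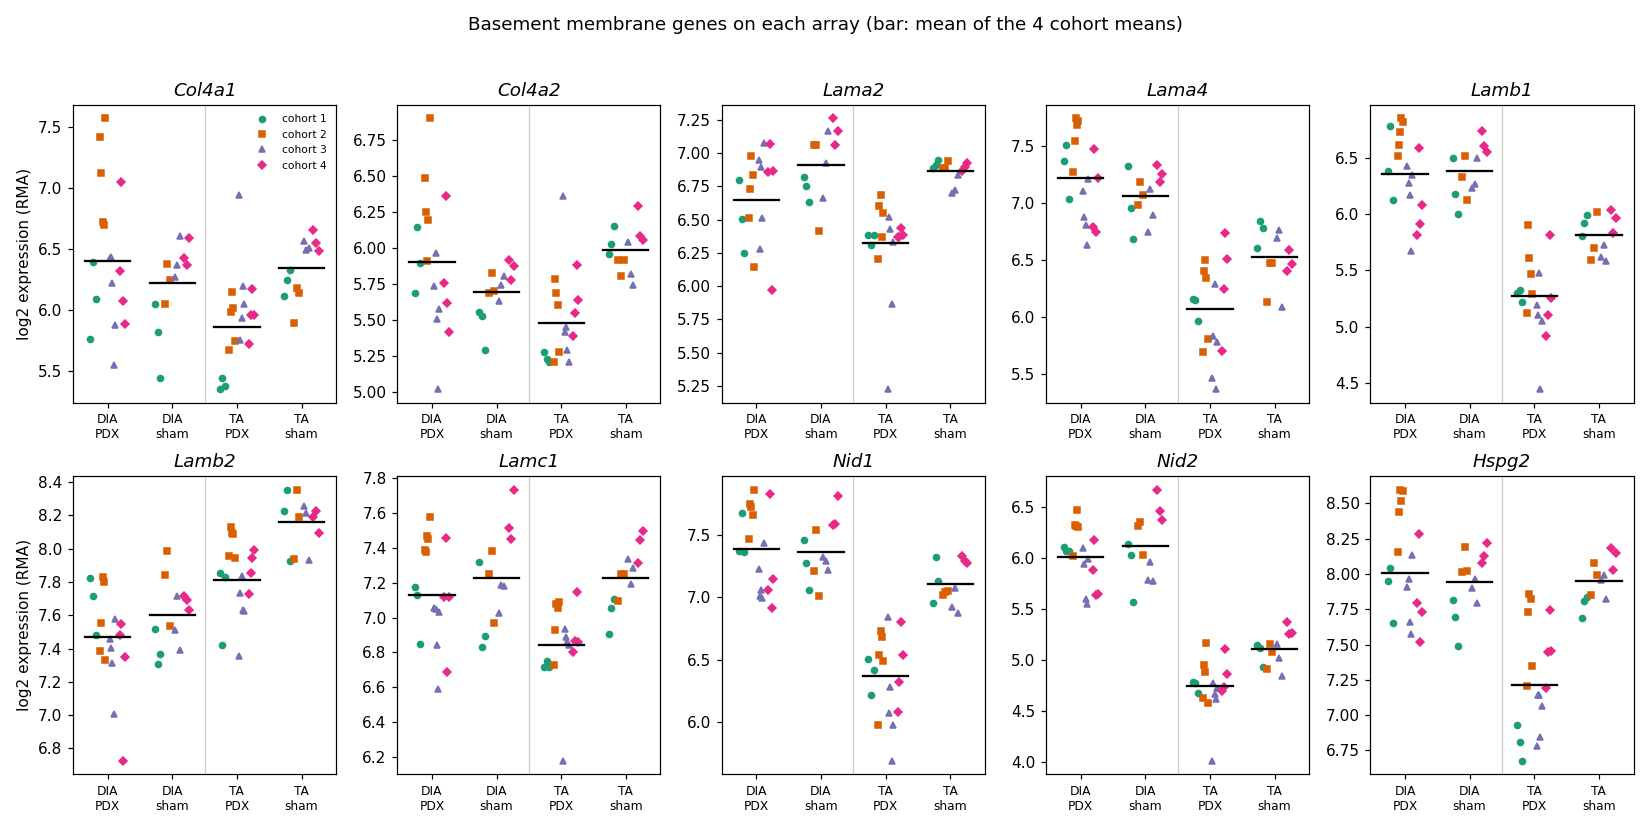
Log2 expression of the 10 genes (one panel each, own vertical scale) on every array, by muscle and treatment. Points are arrays, with symbols for the cohort, and the bar is the mean of the 4 cohort means. In TA the PDX values of Nid1 and Lama2 all lie below the sham values (share over all genes not counted). In DIA the PDX and sham values overlap for all 10 genes.

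The collagen IV chains were both lower in TA. Col4a1 had a lowest, median and highest log2 value of 5.35, 5.96 and 6.95 on the PDX arrays, against 5.90, 6.41 and 6.66 on the sham arrays. The difference was -0.49 ± 0.088 (SE; adjusted p = 0.000344, limma). On 7 of 17 PDX arrays Col4a1 lay below every sham array, and on 1 it lay above all of them, which was replicate 1 of cohort 3. Col4a2 had 5.21, 5.42 and 6.36 on the PDX arrays, against 5.74, 5.99 and 6.29 on the sham arrays. Its difference was -0.51 ± 0.093 (SE; adjusted p = 0.000425, limma), and 14 of 17 PDX arrays lay below every sham array.

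Among the laminin chains, Lama2, the alpha chain of the fibre surface, separated the groups. It had 5.23, 6.38 and 6.68 on the PDX arrays, against 6.70, 6.89 and 6.95 on the sham arrays. All 17 PDX values thus lay below the lowest of 12 sham values. The share of all genes that separate in this way was not counted. The difference was -0.54 ± 0.092 (SE; adjusted p = 0.000178, limma). Lama4, the vessel-associated alpha chain, had 5.37, 6.15 and 6.74 in PDX mice, against 6.09, 6.53 and 6.84 in sham mice, and the groups overlapped on 9 of 17 PDX arrays. Its difference was -0.45 ± 0.113 (SE; adjusted p = 0.0066, limma), the weakest call of the 10. It was lost without cohort 1 (adjusted p = 0.0994) or cohort 3 (adjusted p = 0.0704) and with the cohort as the replicate (adjusted p = 0.0504, limma). The beta chains had differences of -0.55 ± 0.098 for Lamb1 (adjusted p = 0.000329) and -0.34 ± 0.067 for Lamb2 (adjusted p = 0.000737, limma). With the cohort as the replicate, Lamb2 had an adjusted p of 0.0538 (limma). Lamc1, the gamma chain of most laminins, had a difference of -0.39 ± 0.069 (SE; adjusted p = 0.000287, limma), and 11 of 17 PDX arrays lay below every sham array.

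The linkers between the networks were lower as well. Nid1 had 5.69, 6.41 and 6.84 in PDX mice, against 6.87, 7.06 and 7.33 in sham mice. Its 17 PDX and 12 sham values did not overlap, and the share of all genes without overlap was not counted. The difference was -0.74 ± 0.098 (SE; adjusted p = 8.18e-06, limma). Nid2, the second nidogen, had 4.02, 4.74 and 5.17 in PDX mice, against 4.85, 5.14 and 5.37 in sham mice, and its difference was -0.36 ± 0.077 (SE; adjusted p = 0.00199, limma). Hspg2, which encodes perlecan, a heparan sulfate proteoglycan, had 6.68, 7.19 and 7.86 in PDX mice, against 7.69, 7.97 and 8.19 in sham mice. The PDX values lay below every sham value on 13 of 17 arrays. The difference was -0.74 ± 0.072 (SE; adjusted p = 1.13e-07, limma), the smallest p of the 10.

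Each of the 10 genes had a negative TA difference in each of the 4 cohorts. The share of all genes with this pattern was not counted. The 10 genes also vary together (median within-group r of 0.43 in TA), so their signs are not independent. The median over the 10 genes was -0.64, -0.26, -0.56 and -0.52 in cohorts 1, 2, 3 and 4. Over all genes it was -0.002, 0.0008, 0.004 and -0.017. Within single cohorts, 3 genes were called lower in cohort 1 (background 1.31% of all genes), 0 in cohort 2 (background 0%; 3 lower at an unadjusted p under 0.05, against 2.95% of all genes), 6 in cohort 3 (background 4.07%) and 1 in cohort 4 (background 0.211%) by limma. Hspg2 was called in cohorts 1, 3 and 4, with differences of -0.97, -0.93 and -0.66, and had -0.38 in cohort 2. A moderated F test of the cohort differences called 0 of the 10 genes in TA (background 0.0129% of all genes), and 1, Hspg2, had an unadjusted p under 0.05 (adjusted p = 0.588; background 7.33%, limma).

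Markers of connective tissue cells were lower on the same TA arrays. Of 11 measured markers of fibro-adipogenic progenitors and fibroblasts, 11 were lower (median -0.75, limma adjusted p under 0.05), among them Mfap5 (-1.38) and Dpt (-1.35). Their mean log2 level ranged over 4.87 to 6.55 on PDX arrays, against 6.55 to 7.26 on sham arrays. Of 8 tendon markers 7 were lower (median -1.41), and their mean ranged over 3.86 to 5.76 on PDX arrays, against 5.14 to 6.997 on sham arrays. Of 16 endothelial markers 3 were higher and 1, the VEGF receptor gene Kdr (-0.87), was lower, and their mean ranged over 6.51 to 6.95 on PDX arrays, against 6.64 to 6.94 on sham arrays. Of 12 markers of pericytes and smooth muscle, 1 was higher and 3 were lower. Over all genes 12.8% were called in either direction in TA.

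With the endothelial mean as a covariate, all 10 genes stayed lower (limma adjusted p between 7.1e-09 and 0.00204). With the fibroblast mean as a covariate, 0 of the 10 genes passed (limma adjusted p between 0.264 and 0.995), while at an unadjusted p under 0.05 Col4a1 and Col4a2 were lower (4.58% of all genes were) and Lama4 was higher (4.39% of all genes). Col4a1 then had a difference of -0.67 ± 0.201 and Col4a2 of -0.51 ± 0.216 (SE), against -0.49 and -0.51 with no covariate. Nid1 had -0.33, Hspg2 -0.25, Lamb2 -0.04 and Lamc1 -0.01. The differences of Lama2, Lama4, Lamb1 and Nid2 were then above 0, at 0.08, 0.43, 0.05 and 0.02. With the tendon mean, 0 of the 10 passed (limma adjusted p between 0.617 and 0.974), and 4 were lower at an unadjusted p under 0.05, against 3.01% of all genes. They were Col4a1 at -0.47 ± 0.186, Col4a2 at -0.44 ± 0.195, Nid1 at -0.46 ± 0.196 and Hspg2 at -0.37 ± 0.127 (SE). Of the other genes 5 had between -0.27 and -0.10, and Lama4 had 0.13. Across all genes the fibroblast covariate left 35 calls and the tendon covariate 3, against 2979 with no covariate. These 3 covariates were chosen after seeing the data. The endothelial mean hardly differed between TA PDX and sham arrays (6.79 and 6.82), so that fit could remove little of any difference. The fibroblast mean (5.95 and 6.85) and the tendon mean (4.54 and 5.78) differed with the treatment. Fits with them therefore cannot tell these markers apart from the tumour, and the fits do not rank the cell types. The part of these cells in the lower basement membrane RNA was not tested beyond these values.

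In the diaphragm, 0 of the 10 genes passed the test of PDX against sham (limma adjusted p between 0.159 and 0.927; background 12.5% in either direction). At an unadjusted p under 0.05 the count was 1, Lama2, against 23.5% of all genes. The differences ran from -0.27 for Lama2 to 0.21 for Col4a2, with a median of -0.00 over the 10 genes. Their 95% intervals show how large a change the arrays leave possible, and for Col4a1 the interval ran from -0.07 to 0.45.

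**Figure D2:**
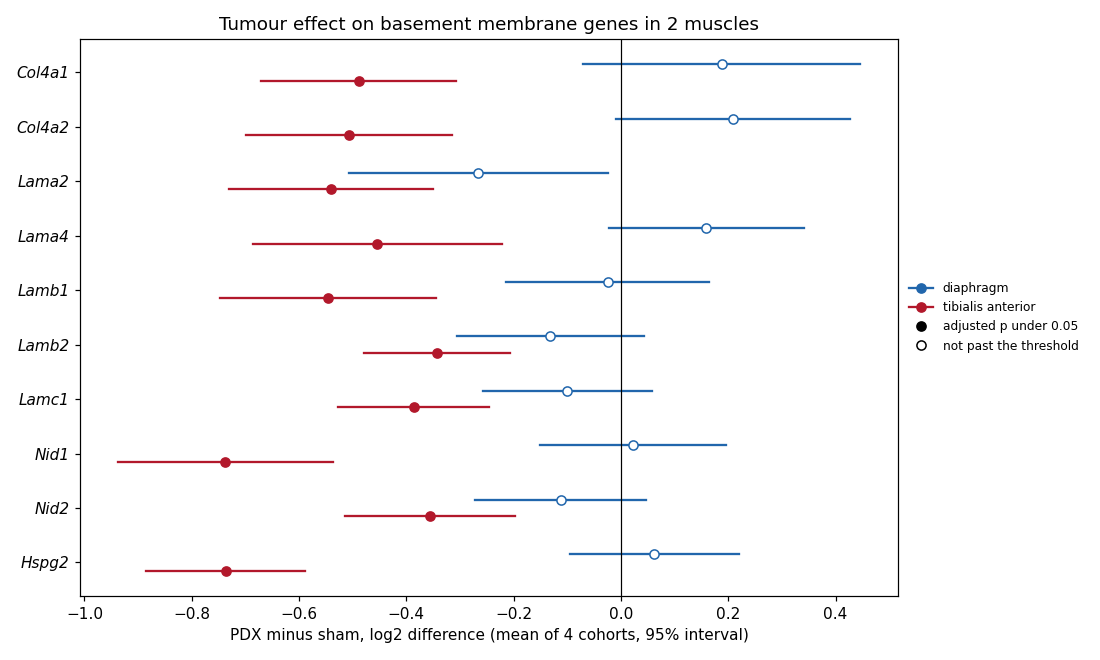
Log2 difference of PDX minus sham (horizontal axis, mean over 4 cohorts) for each gene in DIA (blue, upper) and in TA (red, lower). Lines are 95% intervals and filled points have an adjusted p under 0.05. The TA points run from -0.74 to -0.34 and all are filled, whereas no DIA point is filled.

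Col4a1 in the diaphragm had 5.55, 6.40 and 7.57 on the PDX arrays, against 5.44, 6.32 and 6.60 on the sham arrays, and its difference was 0.19 ± 0.126 (SE; adjusted p = 0.419, limma). On 6 of 17 PDX arrays it lay above every sham array, and 5 of the 6 were of cohort 2. Lama2 had 5.97, 6.80 and 7.08 in PDX mice, against 6.42, 6.99 and 7.26 in sham mice, and 4 of 17 PDX values lay below every sham value. Its difference was -0.27 ± 0.117 (SE; adjusted p = 0.159, limma). With the hepatocyte marker mean as a covariate, chosen after seeing the data, it was -0.28 and passed (adjusted p = 0.0487, limma). Nid1 had 6.92, 7.37 and 7.86 in PDX mice, against 7.01, 7.31 and 7.81 in sham mice, and the ranges overlapped. Its difference was 0.02 ± 0.084 (SE; adjusted p = 0.927, limma).

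In the diaphragm the sign of the difference was not the same in all cohorts. Of the 10 genes, 9, 8, 1 and 0 had a difference above zero in cohorts 1, 2, 3 and 4, and their medians were 0.21, 0.38, -0.16 and -0.41. The shares of all genes above zero were not counted, and the medians over all genes were -0.016, -0.019, 0.005 and -0.005. Col4a1 in cohort 2 was the 1 gene called in a single cohort, with PDX values between 6.70 and 7.57, against sham values between 6.04 and 6.38. That difference was 0.88 ± 0.241 (SE; adjusted p = 0.0464, limma; background 2.21% called higher). Nid2 had 0.17, 0.05, -0.00 and -0.67 in cohorts 1, 2, 3 and 4, and Lamb1 had 0.20, 0.38, -0.15 and -0.53. The genes did not share 1 order of the cohorts. Lama2 was below zero in all 4 cohorts, with -0.22, -0.20, -0.17 and -0.47, and Lamb2 had 0.28, -0.21, -0.19 and -0.41.

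**Figure D3:**
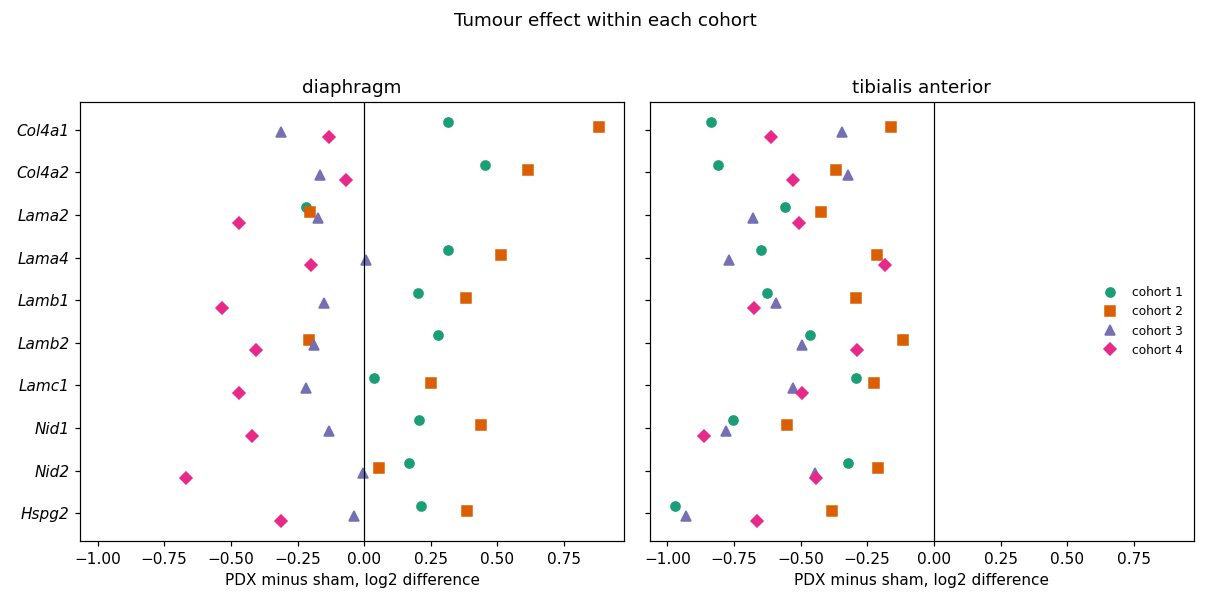
Log2 difference of PDX minus sham within each cohort (symbols) for the 10 genes, in DIA (left) and TA (right). In TA every point lies below zero. In DIA cohorts 1 and 2 lie mostly above zero, and cohorts 3 and 4 mostly below.

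The F test of these cohort differences in DIA passed for 0 of the 10 genes after adjustment (background 0.00431%, limma), and for 8 of 10 at an unadjusted p under 0.05, against 7.44% of all genes. The exceptions were Lama2 (unadjusted p = 0.791, adjusted p = 0.972) and Lamb2 (unadjusted p = 0.0715, adjusted p = 0.718, limma F test). The other 8 had adjusted p between 0.439 and 0.644 (limma F test). Without the Alb-high arrays, 8 of the 10 genes stayed above zero in cohort 2 (median 0.38; 3 PDX and 2 sham arrays). In cohort 3, 5 were above zero (median -0.08), with 3 PDX arrays and only 1 sham array left, and in cohort 4, 2 were (median -0.17), with 2 arrays of each. Cohort 1 dropped out, and these counts carry no test. Interstitial collagens had cohort medians of 0.52, 0.98, 0.04 and -0.06 in DIA, and fibroblast markers had 0.35, 0.64, 0.08 and -0.19. The tumour, the mice and the time of each cohort cannot be told apart.

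The effect of the tumour differed between the muscles for 6 of the 10 genes, all with a higher (less negative or positive) effect in DIA than in TA. Across all genes 3.66% were called in this direction (limma adjusted p under 0.05). The difference of the effects, DIA minus TA, was 0.80 ± 0.105 for Hspg2 (adjusted p = 7.57e-07) and 0.76 ± 0.131 for Nid1 (adjusted p = 9.69e-05, limma). It was 0.72 for Col4a2 (adjusted p = 0.000746), 0.68 for Col4a1 (adjusted p = 0.0039), 0.61 for Lama4 (adjusted p = 0.00585) and 0.52 for Lamb1 (adjusted p = 0.0127, limma). Hspg2 and Nid1 passed also without cohort 1, without the Alb-high arrays and with the cohort as the replicate. The other 4 did not pass in any of those settings, and without cohort 2 the count was 3.

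Lama2, Lamb2, Lamc1 and Nid2 were not shown to differ between the muscles. The difference was 0.27 for Lama2 (adjusted p = 0.340; 95% interval -0.03 to 0.58), 0.21 for Lamb2 (adjusted p = 0.283), 0.29 for Lamc1 (adjusted p = 0.0844) and 0.24 for Nid2 (adjusted p = 0.202, limma). Lamc1 passed without DIA PDX replicate 3 of cohort 4 (0.32, adjusted p = 0.0343), without DIA sham replicate 1 of cohort 1 (0.32, adjusted p = 0.0415) and without cohort 4 (0.37, adjusted p = 0.0485, limma). With array weights, which use all arrays, it passed as well (0.29, adjusted p = 0.0109, limma).

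In sham mice the 2 muscles differed in some of these genes, and 9210 of all 23185 genes were called in either direction. Of the 10, 4 were higher and 2 lower in sham diaphragm than in sham TA, against 15.2% and 24.5% of all genes (limma adjusted p under 0.05). The count of lower genes is near its share and is not read as a result about the 10. Nid2 had 5.57, 6.09 and 6.67 (lowest, median and highest) in sham DIA, against 4.85, 5.14 and 5.37 in sham TA. These values did not overlap between the muscles, and the share of all genes without overlap was not counted. The difference was 1.02 ± 0.083 (SE; adjusted p = 4.04e-14, limma), a 2.02-fold level. Lamb1 was higher by 0.56 ± 0.104 (adjusted p = 2.22e-05) and Lama4 by 0.53 ± 0.112 (adjusted p = 0.000147, limma). Lamb2, which is enriched at the neuromuscular junction, ran the other way, with 7.31, 7.58 and 7.99 in sham DIA, against 7.93, 8.20 and 8.35 in sham TA. That difference was -0.56 ± 0.081 (SE; adjusted p = 2.79e-07, limma).

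Nid1 was higher in sham DIA by 0.26 ± 0.099 (adjusted p = 0.0353) and Col4a2 differed by -0.29 ± 0.109 (adjusted p = 0.0297, limma). Both calls were close to the threshold. Nid1 was lost without any 1 cohort (adjusted p between 0.06015 and 0.113) and Col4a2 without cohort 1 (adjusted p = 0.295) or cohort 4 (adjusted p = 0.0742, limma). Leaving out 1 array lost the Nid1 call for each of sham DIA replicate 1 of cohort 1, 2 of cohort 2, 1 of cohort 3 and 3 of cohort 4 and sham TA replicate 1 of cohort 1 and 3 of cohort 3 (limma adjusted p between 0.0522 and 0.0794). The Col4a2 call was lost without sham DIA replicate 3 of cohort 1, sham TA replicate 1 of cohort 3 or sham TA replicate 1 of cohort 4 (limma adjusted p between 0.0513 and 0.0561). Without the Alb-high arrays neither passed (adjusted p = 0.0985 for Nid1 and 0.208 for Col4a2, limma). Col4a1 (-0.13), Hspg2 (-0.01), Lama2 (0.05) and Lamc1 (0.00) did not pass (limma adjusted p between 0.398 and 0.999). Mesothelial markers, which come with the surface layer of the diaphragm, had a mean log2 level of 5.69 to 6.86 on sham DIA arrays, against 3.34 to 3.66 on sham TA arrays. Fibroblast markers had 6.95 to 7.72 on sham DIA arrays, against 6.55 to 7.26 on sham TA arrays. The part of these cells in the muscle differences was not tested.

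Related chains did not always change alike. The within-array log2 difference of each pair was compared between PDX and sham by an exact permutation test within cohorts (two-sided, adjusted over 4 pairs in 2 muscles). In TA, Nid1 minus Nid2 was 1.62 in PDX mice, against 2.00 in sham mice, a change of -0.38 (exact permutation p = 0.00265, adjusted p = 0.0106), negative in 4 of 4 cohorts. It did not pass without cohort 1 (adjusted p = 0.0742), cohort 2 (adjusted p = 0.0599) or cohort 4 (adjusted p = 0.102, exact permutation). Nid2 was dim in TA, with means of 4.75 in PDX and 5.11 in sham mice, against 6.37 and 7.10 for Nid1. The median of all values was 3.78. Whether the low level of Nid2 made its change look smaller was not tested. In DIA, Lama2 minus Lama4 was -0.57 in PDX mice, against -0.15 in sham mice, a change of -0.42 (exact permutation p = 0.000458, adjusted p = 0.00367), negative in 4 of 4 cohorts. That change was -0.33 without cohort 2 (exact permutation, adjusted p = 0.0599) and -0.48 without the Alb-high arrays (exact permutation, adjusted p = 0.05).

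**Figure D4:**
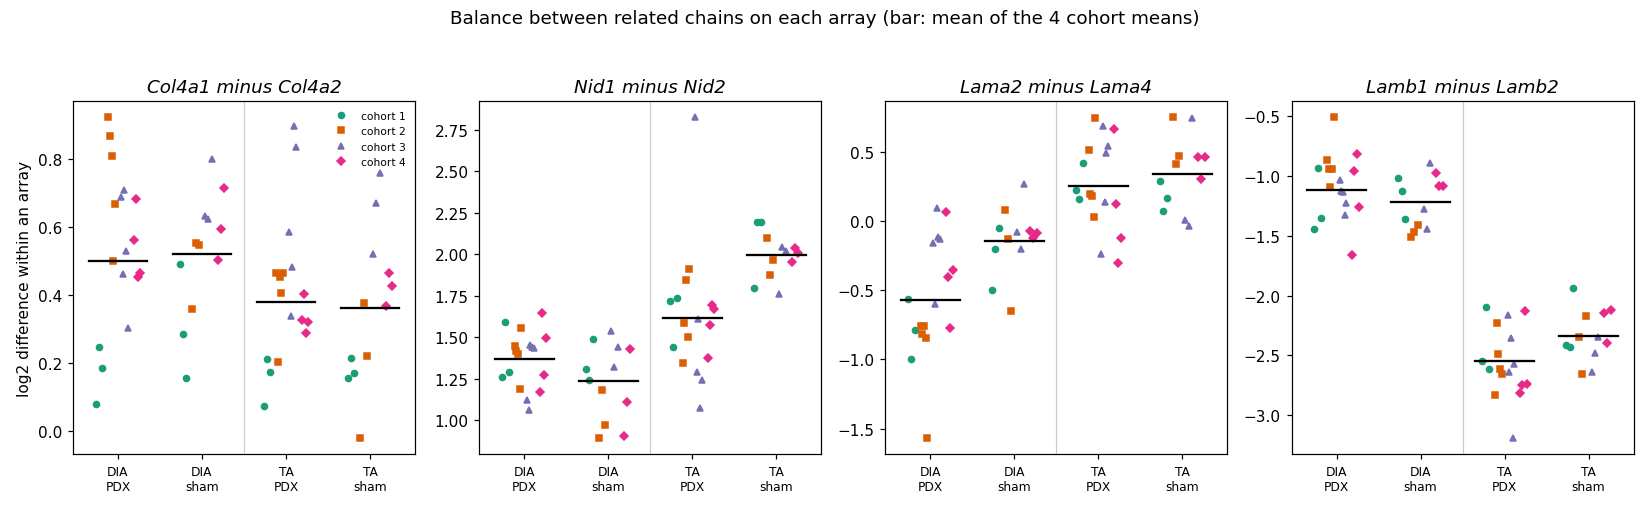
Log2 difference between related chains on each array (vertical axis) by muscle and treatment, with the bar at the mean of the 4 cohort means. Nid1 minus Nid2 is lower in TA PDX (1.62) than in TA sham (2.00), and Lama2 minus Lama4 is lower in DIA PDX (-0.57) than in DIA sham (-0.15).

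The other 6 tests did not pass. Col4a1 minus Col4a2 changed by -0.02 in DIA and by 0.02 in TA (exact permutation, adjusted p = 0.726 each), and Lamb1 minus Lamb2 by 0.11 in DIA (adjusted p = 0.460) and by -0.20 in TA (exact permutation, adjusted p = 0.154). Lama2 minus Lama4 in TA (-0.09) and Nid1 minus Nid2 in DIA (0.13) had adjusted p of 0.576 and 0.166 (exact permutation).

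Within groups, the collagen IV chains varied together. After each group mean was removed, Col4a1 and Col4a2 had a Pearson r of 0.921 and a Spearman rho of 0.919 over 29 DIA arrays (permutation p = 1e-05 for both, the smallest that 100000 permutations give; adjusted p = 8e-05 over 8 tests). In TA the values were r = 0.842 (permutation, adjusted p = 0.0064) and rho = 0.746 (permutation, adjusted p = 0.00192). Without the 2 arrays farthest from the median of Col4a1, r was 0.884 in DIA and 0.726 in TA. Nid1 and Nid2 had r = 0.652 and rho = 0.615 in DIA (permutation, adjusted p = 0.0064 and 0.00707; r = 0.552 without 2 arrays), and r = -0.07 and rho = 0.159 in TA (permutation, adjusted p = 0.820 and 0.488; r = 0.294 without 2 arrays). Lama2 with Lama4 had r = 0.516 and rho = 0.510 in DIA (permutation, adjusted p = 0.0297 and 0.0236), and r = 0.441 and rho = 0.336 in TA (permutation, adjusted p = 0.0857 and 0.193). Lamb1 with Lamb2 had r = 0.554 and rho = 0.543 in DIA (permutation, adjusted p = 0.0297 and 0.0171), and r = 0.255 and rho = 0.209 in TA (permutation, adjusted p = 0.225 and 0.344). The arrays of a muscle share their normalization and, in DIA, the varying hepatocyte RNA.

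As a description over the 16 group means, which share muscle and treatment, the gene most like Nid1 was Col6a2 (Pearson r = 0.970), a chain of collagen VI, followed by Col6a1 (0.968) and Lamb1 (0.966). Lama4 was most like Cd34 (0.977), a marker of endothelium and of fibroblast progenitors. Nid2 was most like Plekhh2 (0.976) and Efemp1 (0.973), and Hspg2 like Plxnd1 (0.943), a semaphorin receptor of endothelium. Lama2 was most like Itgb1bp2 (0.928), which encodes the muscle protein melusin, and Lamb2 like Cpe (0.946). Lamb1 was most like Aplp2 (0.977), Lamc1 like Plxnd1 (0.923), Col4a1 like Plxna1 (0.888) and Col4a2 like Col4a1 (0.864). Over the 45 pairs of the 10 genes the correlation ran from -0.52 to 0.97, with a median of 0.67.

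Other parts of the basement membrane were described from lists of genes. Over all genes, 12.8% were called in either direction in TA and 12.5% in DIA. At an unadjusted p under 0.05 the share was 23.5% in DIA (limma). List counts near these shares are not read as results about the list. Of 9 measured further chains of collagen IV and laminin, 1 was higher and 0 were lower in TA (median -0.10, limma; 1 at an unadjusted p under 0.05). Only 2 of the 9 had a mean above the array median in TA, and 4 of the 9 in DIA. Most of them were thus too dim in TA to show a fall, and the count does not tell whether they were spared. The 1 higher in TA was Lama5, the alpha chain of mature vessels and epithelia, with 0.38 ± 0.059 (SE; adjusted p = 5.4e-05, limma). In DIA 1 of the 9 was higher, Lamc3, with 0.41 (adjusted p = 0.00581), and Lama5 had 0.27 (adjusted p = 0.0592, limma).

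Of 19 further matrix components of the sheet, 12 were lower and 1 higher in TA (median -0.24, limma). Sparc, a collagen-binding glycoprotein, fell by 1.09 (adjusted p = 7.76e-08) and Col15a1, the basement membrane collagen of muscle and capillaries, by 0.98 (adjusted p = 0.000477, limma). The calcium-binding Smoc2 fell by 0.75 (adjusted p = 1.35e-06, limma). In DIA 5 of the 19 were higher and 2 lower (median 0.16, limma). Hmcn1, which encodes hemicentin, rose there by 0.63 (adjusted p = 0.000104) and Smoc2 by 0.46 (adjusted p = 0.0106), while Col15a1 fell by 0.51 (adjusted p = 0.00127, limma).

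Of 19 receptors, 6 were lower and 1 higher in TA (median -0.12, limma). The collagen receptor Ddr2 fell by 0.45 (adjusted p = 0.00133) and the heparan sulfate syndecan Sdc2 by 0.56 (adjusted p = 0.000201, limma). Itga7, the laminin-binding integrin alpha chain of muscle fibres, rose by 0.42 (adjusted p = 8.07e-05, limma). In DIA 2 of the 19 were higher and 0 lower (limma; 3 at an unadjusted p under 0.05). They were Itga3 with 0.34 and Itgb4 with 0.31 (adjusted p = 0.0056 and 0.032, limma). Over all genes in DIA 12.5% were called and 23.5% had an unadjusted p under 0.05, so these counts do not mark out the receptors.

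Of 15 genes for folding, secretion and crosslinking of collagen IV, 8 were lower and 2 higher in TA (median -0.27, limma). Loxl2, a lysyl oxidase that crosslinks collagen IV, fell by 0.95 (adjusted p = 0.000425), the collagen chaperone Serpinh1 by 0.78 (adjusted p = 2.47e-06) and the prolyl hydroxylase subunit P4ha1 by 0.66 (adjusted p = 7.68e-06, limma). In DIA 2 were higher and 1 lower (median 0.08, limma), with 0.48 for the lysyl hydroxylase Plod2 (adjusted p = 0.0435) and -0.44 for P4ha1 (adjusted p = 0.00711, limma). Most of these enzymes act on other collagens too. The 11 interstitial collagens were all lower in TA (median -1.12, limma), led by Col1a1 (-2.55), whereas in DIA 5 of the 11 were higher and 0 lower (median 0.35, limma). At an unadjusted p under 0.05, 8 were higher and 1, Col5a3, was lower in DIA, against 23.5% of all genes in either direction.

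**Figure D5:**
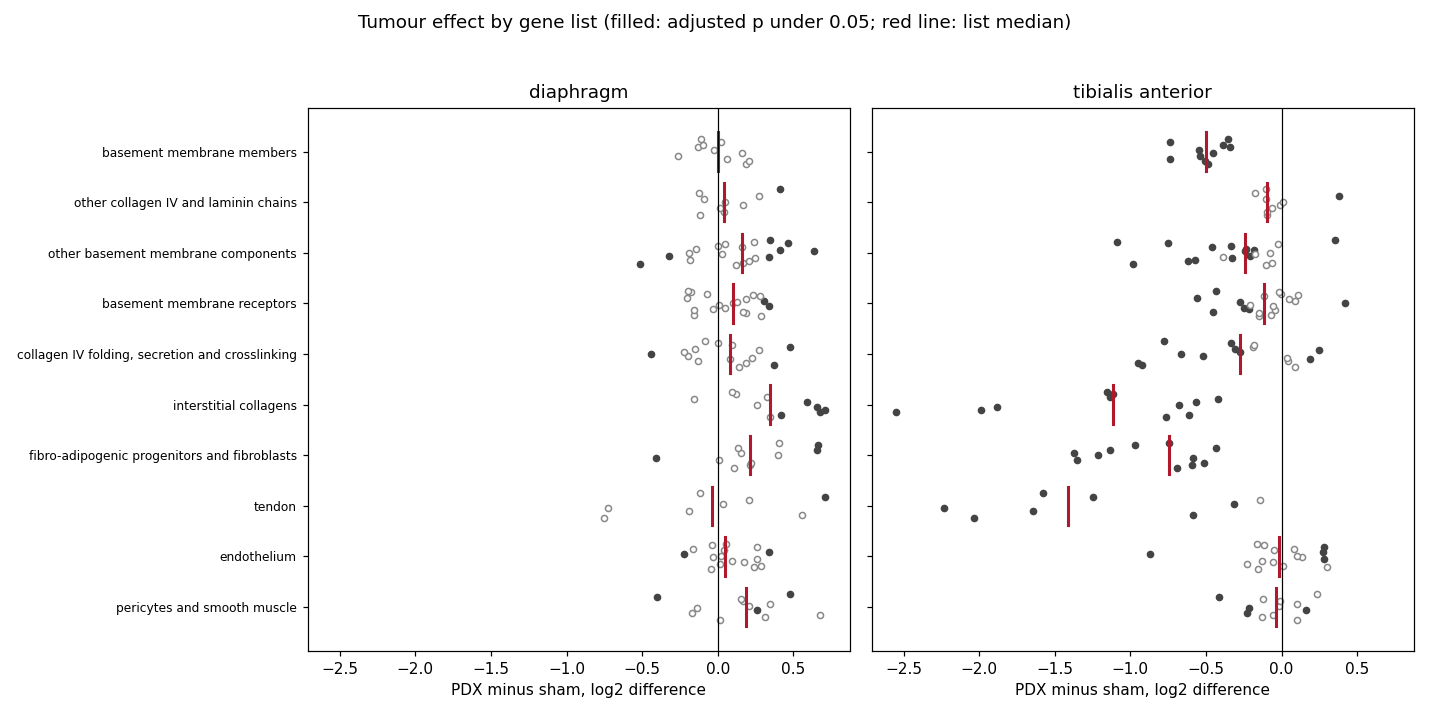
Log2 difference of PDX minus sham for each gene (points, filled where the adjusted p is under 0.05) by list, in DIA (left) and TA (right), with the list median in red. In TA the median of the 10 genes is -0.50 and that of the interstitial collagens -1.12, and in DIA they are -0.00 and 0.35.

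Markers of the other cells were called as follows in DIA, where 12.5% of all genes were called in either direction (12.8% in TA). Of 9 measured macrophage markers 7 were higher and 0 lower (median 0.92, limma), led by Cd68 (1.32), and their mean log2 level was 6.17 to 7.80 on PDX arrays, against 5.56 to 6.67 on sham arrays. Of 11 fibroblast markers 2 were higher and 1 lower, of 9 mesothelial markers 3 were higher and 0 lower, of 16 endothelial markers 1 was higher and 1 lower, and of 12 markers of pericytes and smooth muscle 2 were higher and 1 lower (limma). Satellite cells had 1 of 9 higher, tendon 1 of 8 higher, Schwann cells 2 of 7 lower, adipocytes 1 of 6 lower and muscle fibres 2 of 12 lower (limma). In TA, satellite cells had 2 of 9 lower, Schwann cells 1 of 7 lower, mesothelium 1 of 9 higher, macrophages 1 of 9 higher and 2 lower, adipocytes 1 of 6 higher, and muscle fibres 2 of 12 higher and 2 lower (limma). Hepatocyte and acinar markers had no call in either muscle (limma; 1 acinar marker in DIA at an unadjusted p under 0.05).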

How the data were processed

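RNA of both muscles was extracted with TRIzol, biotin-labelled and put on Affymetrix arrays, per the labels' protocols. The deposited log2 values of 25206 probe sets were computed by the authors with RMA, and the submitters' processing notes list affy 1.36.1 and R 2.15.1. RMA subtracts background, makes the arrays' distributions equal and summarises the probes, so values are relative to the array. Not given in the sources used here are the probe set definition, the build, and whether all cohorts went through RMA at once. Probe sets were named through the platform annotation: 23185 had exactly 1 symbol, and the other 2021, with no symbol or several, were left out.

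Each muscle was fitted in limma 3.58.1 (R 4.3.3) with 8 group means (cohort by treatment), and both muscles with 16 group means for the differences between muscles, with no filter on dim genes. P-values are two-sided and Benjamini-Hochberg adjusted over 23185 genes, with a threshold of 0.05. Pairs of genes were compared with exact permutation tests in scipy 1.17.1 and numpy 2.4.6. The fits were tested on simulated data. The number of arrays limits the precision. The labels do not say that every array is a separate animal, so the p-values describe the spread between arrays, which may be technical. Equal sample numbers are not stated to mark 1 mouse: over 29 pairs of equally numbered DIA and TA arrays, the deviations from the group means correlated at -0.22 to 0.22 (median 0.02).

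The genes, lists and tests were chosen with earlier results of these data known. Named genes were all 10 members, up to 4 genes with the largest called difference per pathway list, up to 2 per cell list and the 3 most correlated genes per member, of which some are printed. Alternatives covered normalization, filters, prior, weights, cohort handling, left-out arrays, cohorts and Alb-high arrays, replicate blocks and marker covariates.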

Additional observations from a re-analysis of the deposited data

Results flagged for a closer look

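Single arrays were tested against their group in the PDX groups of cohorts 2, 3 and 4, and not in sham or cohort 1 groups. Of 60 such tests over the 10 genes, 3 found an array far from the others, and chance gives about 1 in 20. All 3 were PDX replicate 1 of cohort 3 in TA. It was highest in Col4a2 at 6.36, against 5.45 for the next array. It was lowest in Lamc1 at 6.18, against 6.84 for the next array, and in Nid2 at 4.02, against 4.62. Leaving out that array did not change any of the 10 TA calls.

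The effect of the tumour, DIA minus TA, passed the test of the difference itself (limma) for Col4a1 (0.68), Col4a2 (0.72), Hspg2 (0.80), Lama4 (0.61), Lamb1 (0.52) and Nid1 (0.76). Without the Alb-high arrays, Hspg2 and Nid1 passed and the other 4 did not.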

How the results depend on the processing

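The TA count of 10 lower genes did not change with median centring, repeated quantile normalization, the filter on dim genes, the other prior, array weights, the additive cohort term, the fit of all arrays or any left-out array (10 to 10). It was 8 with the cohort as the replicate and 9 without cohort 1 or without cohort 3. With the fibroblast or the tendon covariate it was 0, and Nid2, Lama2, Lama4 and Lamb1 reversed to 0.018, 0.082, 0.43 and 0.046 with the first and Lama4 to 0.13 with the second. Col4a1 had -0.67 and -0.47 under these covariates and Col4a2 -0.51 and -0.44, against -0.49 and -0.51 with none. Few genes were called under these covariates, and the cause was not tested. The DIA count of lower genes was 1 with the hepatocyte covariate. The 6 genes with a higher effect in DIA than in TA were 2 with the cohort as the replicate, 2 without cohort 1, 3 without cohort 2 and 2 without Alb-high arrays, and array weights added Lamc1 as a further gene, for a count of 7. The count of lower genes in sham DIA against sham TA was 1 with an additive cohort term, without cohort 1, without cohort 4, without Alb-high arrays and with the hepatocyte covariate, and 1 to 2 over left-out arrays. Fewer samples enter the settings that leave out cohorts or arrays.

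The change of Nid1 minus Nid2 in TA was -0.36 without cohort 1 (exact permutation, adjusted p = 0.0742), -0.39 without cohort 2 (0.0599) and -0.37 without cohort 4 (0.102). Lama2 minus Lama4 in DIA was -0.33 without cohort 2 (exact permutation, adjusted p = 0.0599) and -0.48 without Alb-high arrays (0.05). Nid1 minus Nid2 in DIA passed without cohort 3, at 0.22 (exact permutation, adjusted p = 0.0404).

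The sample numbers were not shown to pair the arrays. Within a muscle the replicate block joined PDX and sham arrays of equal number in a cohort, which are different mice. It gave 10 lower in TA and 0 in DIA, as without it. Between the muscles the block joined DIA and TA arrays of equal number. The counts were then 6 for the difference between muscles and 4 higher and 2 lower in sham mice, as without it. Over all genes the calls were 1122 in TA, 1018 in DIA and 403 for the difference with the cohort as the replicate, against 2979, 2892 and 1468. Without cohort 1 they were 1426, 1501 and 531, and without cohort 2 1699 in DIA and 705 for the difference. Without Alb-high arrays they were 654 in DIA, 690 for the difference and 5556 in sham mice (9210 with all arrays), and array weights gave 2690 for the difference. Median centring moved the share of higher calls for the difference to 45.5%, against 57.8%, with the 6 genes still called.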
